A study of Mus musculus with 6 samples.

Results

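The genes of glycolysis and 14 further genes of the hypoxia response were examined in CT26 tumours grown under the skin of mice given irinotecan or solvent. They were 34 genes chosen by name, of 25251 genes in the deposited table, in 4 groups by role. There were 15 glycolytic enzymes (Hk1, Hk2, Gpi1, Pfkl, Pfkm, Pfkp, Aldoa, Aldoc, Tpi1, Gapdh, Pgk1, Pgam1, Eno1, Pkm and Ldha) and 5 flux regulators and transporters (Slc2a1, Pfkfb3, Pfkfb4, Pdk1 and Slc16a3). There were 13 other targets of the hypoxia-inducible factor HIF (Car9, Bnip3, Bnip3l, Egln1, Egln3, Ankrd37, Adm, Ndrg1, P4ha1, P4ha2, Kdm3a, Mxi1 and Ddit4), and Hif1a, which encodes the oxygen-regulated subunit of HIF-1. The 34 genes had 35 rows, because 2 annotated genes carry the symbol Aldoa, and the second Aldoa gene was kept apart from the counts over members.

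Both groups carried tumours of the CT26 line, a mouse colon carcinoma line labelled WT, in BALB/c mice that were randomized at a tumour volume of 100 mm3. The irinotecan group (n = 3) received CPT-11, another name for irinotecan, at 25 mg/kg by intraperitoneal injection every 4 days. The control group (n = 3) received solvent. Irinotecan is a prodrug whose active product blocks topoisomerase I. CT26 is a single line, and the interval between the last injection and sampling was not available here from labels or files. The series text calls the design duplicate, where 3 samples per group are labelled. Whether every sample was a different mouse is not stated, so p-values reflect only the spread among these samples, which may be technical. RNA came from whole tumours, so host cells contribute, and fewer cells of a type cannot be told apart from less RNA per cell.

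Glycolysis splits glucose into pyruvate in the cytosol, and lactate dehydrogenase and a lactate exporter carry the end product out of the cell. When oxygen is scarce, prolyl hydroxylases of the Egln family stop marking HIF-1 alpha for destruction by the VHL ubiquitin ligase. The stabilized factor pairs with Arnt and binds a short ACGTG or GCGTG core at genes for glucose uptake, glycolysis, pH control, mitophagy and collagen modification. Solid tumours often show both programmes, from poor perfusion or from growth signals.

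RefSeq promoter windows on GRCm38.p6 were searched on both strands for the HIF core in its forms ACGTG and GCGTG. The palindrome CACGTG was counted once on each strand. Each window ran from 250 bases before to 50 bases after an annotated start, and 32 of the 34 genes had at least 1 window (49 windows). Ndrg1 and Bnip3l are named only. ACGTG was present for 23 of the 32 genes (71.9%), against 21.8% of all 27025 genes with a window and 28.8% of the 10308 such genes that were tested for expression. A gene counted if any of its windows matched. By window the share was 55.1% of the members' 49, against 24.9% of the 13117 windows of tested genes. By role, 10 of 15 glycolytic enzymes, 3 of 5 flux regulators and transporters, 9 of 11 other HIF targets and Hif1a had it. GCGTG was present for 21 genes (65.6%), against 54.4% of the tested genes. Either form was present for 30 genes (93.8%), against 66.0% of the tested genes. The members' windows had a median GC content of 63.0%, against 60.3% for windows of tested genes. The members include genes picked as HIF targets, many of them known through this motif, so the counts describe the choice of genes. A match is a string of letters, not a shown binding site.

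The 250 bases before the start are shown for 3 genes of sugar uptake and breakdown and 3 other HIF targets, because these 6 genes recur in the expression results. Capitals mark every ACGTG and its reverse complement CACGT. Adm, the member with the smallest p-value, is shown because it held no ACGTG in this window, only 2 copies of GCGTG on the reverse strand. All sequences are the RefSeq reference of GRCm38.p6 (C57BL/6J, not the BALB/c strain of the tumours), 5′ to 3′ on the strand of the gene.
Pgk1 (chrX:106186850-106187099, plus strand): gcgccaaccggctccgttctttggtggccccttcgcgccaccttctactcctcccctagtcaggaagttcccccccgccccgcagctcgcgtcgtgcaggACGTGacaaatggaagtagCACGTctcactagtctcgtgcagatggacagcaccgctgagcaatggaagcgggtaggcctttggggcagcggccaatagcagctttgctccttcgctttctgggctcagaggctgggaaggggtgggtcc
Ldha (chr7:46845554-46845803, plus strand): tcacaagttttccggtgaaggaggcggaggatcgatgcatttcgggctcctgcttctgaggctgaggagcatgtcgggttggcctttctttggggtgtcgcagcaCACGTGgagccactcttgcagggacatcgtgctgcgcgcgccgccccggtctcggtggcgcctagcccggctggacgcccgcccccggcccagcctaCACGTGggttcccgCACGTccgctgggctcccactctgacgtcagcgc
Slc2a1 (chr4:119108495-119108744, plus strand): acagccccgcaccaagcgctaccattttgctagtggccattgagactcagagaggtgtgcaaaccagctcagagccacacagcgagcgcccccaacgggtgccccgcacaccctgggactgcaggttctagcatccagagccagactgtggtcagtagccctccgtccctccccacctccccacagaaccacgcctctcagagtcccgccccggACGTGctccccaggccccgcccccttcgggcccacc
Bnip3 (chr7:138909507-138909756, minus strand): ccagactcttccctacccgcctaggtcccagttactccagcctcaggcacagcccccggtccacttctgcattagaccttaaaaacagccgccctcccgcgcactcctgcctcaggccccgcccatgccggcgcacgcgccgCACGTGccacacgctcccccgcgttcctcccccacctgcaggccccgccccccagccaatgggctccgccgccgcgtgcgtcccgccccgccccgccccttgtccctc
Car9 (chr4:43506776-43507025, plus strand): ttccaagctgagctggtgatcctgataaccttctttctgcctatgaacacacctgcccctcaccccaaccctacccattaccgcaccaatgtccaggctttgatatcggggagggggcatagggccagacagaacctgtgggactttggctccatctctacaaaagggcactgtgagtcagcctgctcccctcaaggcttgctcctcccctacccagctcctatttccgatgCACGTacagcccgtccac
Adm (chr7:110627407-110627656, plus strand): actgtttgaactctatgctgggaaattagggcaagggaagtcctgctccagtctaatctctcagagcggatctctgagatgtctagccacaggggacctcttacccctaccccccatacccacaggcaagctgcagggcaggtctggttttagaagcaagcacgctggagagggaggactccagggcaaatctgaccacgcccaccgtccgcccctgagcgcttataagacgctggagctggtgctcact
In Pgk1 the cores began 150 and 131 bases before the start on opposite strands. Ldha held 5 matches, since its palindromes at 144 and 47 bases before the start each count on both strands, and a separate CACGT lay 34 bases before it. A second Ldha window, at a start further into the gene, held no ACGTG. Slc2a1, Bnip3 and Car9 each had a single marked position, at 36, 107 and 18 bases before the start.

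The 6 libraries held 13940650 to 15656894 reads each, recovered from the deposited normalized counts. Irinotecan replicate 1 stood apart over all genes. Its log2 values correlated with the others at 0.932 to 0.941, against 0.975 to 0.985 for the other pairs. Relative to the control mean, its median log2 difference was -0.76 for genes above 60% GC and 0.36 for genes over 8000 bases, and it had reads for 19040 genes, against 20571 to 21426 elsewhere. Of 11 epithelial and colon markers listed for the labelled cell type, Krt20 dominated (1655 to 1943 normalized counts with irinotecan and 1608 to 2098 in controls). Epcam, Krt19, Cdx2, Vil1 and Muc2 were under the test's minimum and Cdx1 was not analysed here, so the label rests on few of these markers. Log2 fold changes are given with and without irinotecan replicate 1 for the members it moved most, and the plot of fold changes shows both for all 34.

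No member passed the test between irinotecan and control. Limma on log2(normalized count + 1) called 0 of 14639 genes at an adjusted p under 0.05 (0% of genes), and the smallest adjusted p among members was 0.743. At an unadjusted p under 0.05 the share was 5.77% of all genes (2.68% higher and 3.08% lower with irinotecan), and among members it was 1 of 34, Adm, lower. On the recovered reads edgeR called 0 genes, and DESeq2 called 47 of 13984 (0.336%), of which 0 were members. By the values of the authors' deposited table, 0 members passed an adjusted p of 0.05, and the smallest was 0.826. The 3 irinotecan libraries all lay below the 3 controls in 4 members (Gapdh, Pgam1, Mxi1 and Adm), against 7.89% of all genes, and all above them in 0 members, against 6.68% of all genes.

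Within each group the members differed between libraries, and most of them in the same direction. Control replicate 2 was the highest control in 32 of 34 members (94.1%), against 34.4% of all genes tested. That held for 15 of 15 glycolytic enzymes, 5 of 5 flux regulators and transporters and 12 of 13 other HIF targets. The exceptions were Egln3, highest in control 1, and Hif1a, highest in control 3. Among irinotecan libraries, replicate 1 was the highest in 22 of 34 members (64.7%), against 42.2% of all genes. Irinotecan replicates 2 and 3 both lay below the control mean in 27 of 34 members (79.4%), against 32.2% of all genes. The genes are not independent of each other, so these counts describe 6 libraries and are no test of them.

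**Figure D1:**
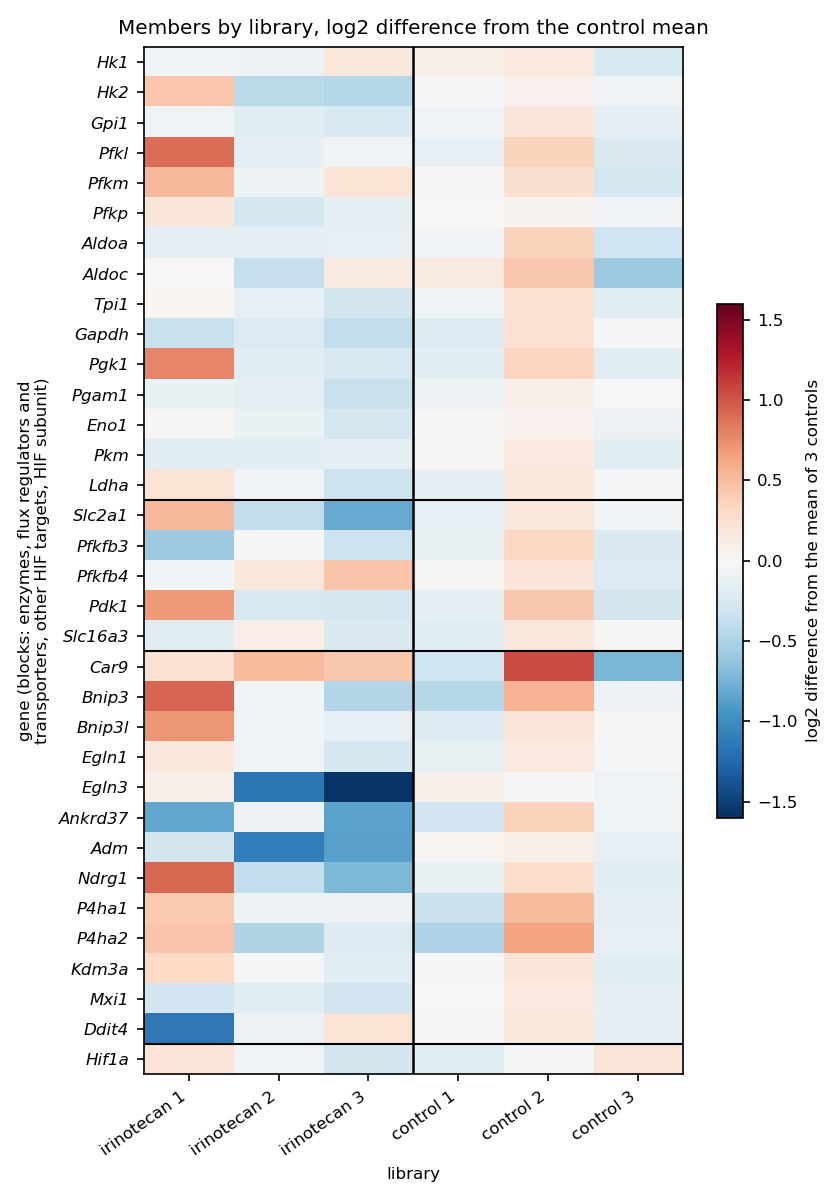
Log2 difference of each of the 34 members (rows, in blocks by role) from the mean of the 3 controls, in each library (columns, irinotecan left of control); red is above and blue below that mean. The column of control 2 is red in nearly every row, irinotecan 1 is red or blue by gene, and irinotecan 2 and 3 are mostly blue, darkest for Egln3 and Adm.

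Members differed widely in level, which is compared per kilobase of the deposited gene length. By this length the late glycolytic enzymes led. Pgk1, the first ATP-making step, had 6208 normalized counts per kilobase with irinotecan and 5496 in controls. Ldha, which turns pyruvate into lactate, had 5838 per kilobase with irinotecan and 6022 in controls. Pkm, the pyruvate kinase gene, had 4043 per kilobase with irinotecan and 4555 in controls. Eno1 had 3469 per kilobase with irinotecan and 3761 in controls. The deposited length exceeds the main transcript unevenly, at 2244 against 1825 bases for Pgk1 and 3310 against 1766 for Ldha. It is 5001 against 2432 bases for Pkm and 5379 against 2027 for Eno1. The order among these genes therefore depends on the length used. At the other end Aldoc, a minor aldolase, had 15.9 per kilobase with irinotecan and 17.2 in controls. Egln3 had 17.0 per kilobase with irinotecan and 27.8 in controls. In the plot of levels per kilobase, the ranges of the 2 groups overlapped for all but 4 members.

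**Figure D2:**
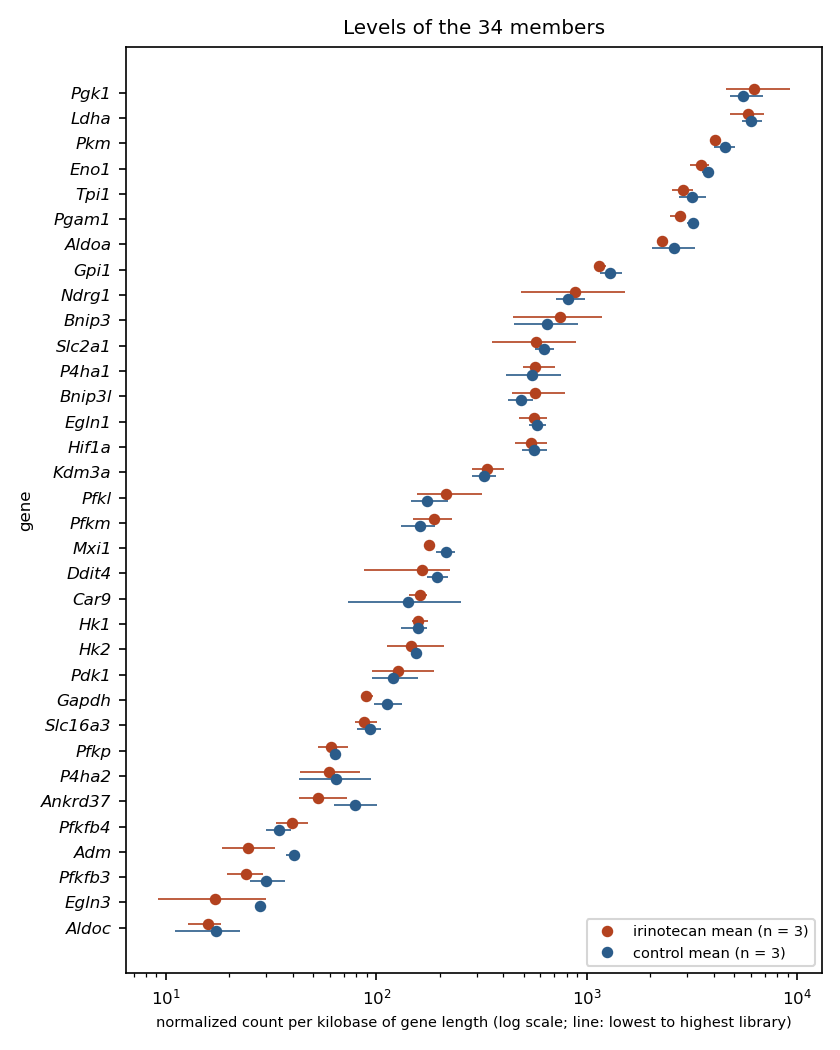
Normalized count per kilobase of gene length (log scale) for the 34 members, irinotecan above control in each row; points are means of 3 libraries and lines run from the lowest to the highest library. By the deposited gene length, levels spanned from 15.9 per kilobase (Aldoc, irinotecan) to 6208 per kilobase (Pgk1, irinotecan). The order of the highest genes depends on the length used.

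Among the 15 glycolytic enzymes, 11 had negative log2 fold changes (irinotecan over control) and 4 positive, from -0.32 to 0.23. Their median was -0.12, against -0.01 for all genes tested, with a median standard error of 0.166 for a single enzyme. Without irinotecan replicate 1 the median was -0.19, against -0.0023 for all genes, and 13 of 15 were negative. The median was nearer to 0 without some other libraries, at -0.0067 without control replicate 2 and -0.05 without irinotecan replicate 3 or 2. It was further from 0 without control replicate 1 (-0.13) or control replicate 3 (-0.17).

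Hk1 and Hk2 are the main hexokinases of these tumours, which trap glucose as glucose 6-phosphate. Hk2 is the inducible one, on chromosome 6 (82725025 to 82774454, GRCm38, minus strand). Hk2 had 1255, 685.8 and 668.9 normalized counts in irinotecan replicates 1, 2 and 3, against 908.7, 967.1 and 890.8 in control replicates 1, 2 and 3. The 3 controls lay close together, with irinotecan 1 above all of them and irinotecan 2 and 3 below all of them. The log2 fold change was -0.15 (SE 0.239, limma adjusted p = 0.85) with all libraries and -0.44 (SE 0.108, limma adjusted p = 0.169) without irinotecan replicate 1. As a share of the hexokinase message per kilobase (Hk1, Hk2 and Hk3), Hk2 took 53.2%, 33.99% and 31.1% in the irinotecan libraries, against 38.8%, 40.2% and 45.5% in controls. Hk3, a hexokinase of myeloid cells, took 8.60% in irinotecan 1 and 14.5% to 22.3% in the other 5 libraries. The 9 macrophage markers summed to 3629 normalized counts in irinotecan 1, against 8324 to 10997 in the other 5 libraries. These markers did not fall alike in irinotecan 1. C1qc (56.6% GC) had 204.3 there, against 1861 and 1858 in irinotecan 2 and 3. Adgre1 (47.7% GC) had 449.7, against 459.4 and 555.4, and Mertk (48.0% GC) had 186.9, against 196.5 and 192.6. The part of macrophages, or of the GC trend of that library, in the hexokinase shares was not tested. Hk1, the housekeeping isoform, had a log2 fold change of 0.01 (SE 0.154).

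Phosphofructokinase sets the committed step, and its liver and muscle isoforms had the 2 largest positive values among the enzymes. Pfkl (chromosome 10, 77986947 to 78010083, minus strand) had 2128, 1035 and 1099 normalized counts in the irinotecan libraries, against 1045, 1463 and 974.1 in controls. Pfkm (chromosome 15, 98092589 to 98132451, plus strand) had 759.8, 498.9 and 616.2 with irinotecan, against 533.8, 634.6 and 436.7 in controls. In both genes irinotecan 1 was the highest library, and the groups overlapped. The log2 fold change of Pfkl was 0.23 (SE 0.287) with all libraries and -0.10 (SE 0.157) without irinotecan replicate 1. That of Pfkm was 0.22 (SE 0.206) with all libraries and 0.07 (SE 0.166) without it. The platelet isoform Pfkp had -0.08 (SE 0.156), and -0.21 (SE 0.110) without irinotecan replicate 1, and 16.0% of its main transcript, counted as 100-base windows, also occurs in another annotated gene.

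Gpi1 interconverts glucose and fructose 6-phosphates, Aldoa and Aldoc cleave fructose 1,6-bisphosphate, and Tpi1 interconverts the products. All had negative values. They were -0.16 (SE 0.144) for Gpi1, -0.15 (SE 0.182) for Aldoa, -0.07 (SE 0.341) for Aldoc and -0.13 (SE 0.163) for Tpi1. Aldoa supplied 98.8% to 99.4% of the aldolase message per kilobase in the irinotecan libraries and 99.3% to 99.5% in controls. Its 3 irinotecan libraries lay within 6596 to 6705 normalized counts, while controls ran between 5904 and 9494. The second gene that carries the symbol Aldoa (ENSMUSG00000114515, chromosome 7, 126800790 to 126809108) averaged 32.7 ± 22.5 normalized counts with irinotecan and 35.01 ± 1.18 in controls (SD, n = 3 each).

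Gapdh, which oxidizes glyceraldehyde 3-phosphate and often serves as a reference gene, lies on chromosome 6 (125161715 to 125166467, minus strand). It had 359.4, 397.8 and 351.7 normalized counts in the irinotecan libraries, against 401.1, 543.7 and 452.2 in controls. The groups did not overlap, by a margin of a few counts between irinotecan 2 and control 1. Its log2 fold change was -0.32 (SE 0.166, 95% interval -0.70 to 0.06, limma adjusted p = 0.743). Its level, 89.4 normalized counts per kilobase with irinotecan and 113 in controls, lay far below those of its neighbours in the pathway, Tpi1 (2864 with irinotecan and 3144 in controls) and Pgk1 (6208 with irinotecan and 5496 in controls). Of the main Gapdh transcript, 85.8% of 100-base windows also occur in other annotated genes, 86 of them. How reads matching several genes were counted is not stated, so the level and the fold change of Gapdh are uncertain.

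Pgk1 lies on chromosome X (106187100 to 106203699, plus strand). Its normalized counts were 20804, 10740.1 and 10251 in the irinotecan libraries, against 10804, 15429 and 10767 in controls. Irinotecan 1 was the highest library by far, control 2 came next, and the other 4 lay within 10251 to 10804. Over all libraries the log2 fold change was 0.12 (SE 0.287, limma adjusted p = 0.908), and -0.21 (SE 0.152) without irinotecan replicate 1, so the sign depended on that library. Pgk1 shares 67.0% of its windows with other genes, mainly Pgk1-rs7.

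Pgam1, the phosphoglycerate mutase gene (chromosome 19, 41911871 to 41918664, plus strand), had the steadier pattern. Its normalized counts were 5425, 5219 and 4549 in the irinotecan libraries, against 5497, 6159 and 5873 in controls. The groups did not overlap, though irinotecan 1 and control 1 were close. Pgam1 had a log2 fold change of -0.21 (SE 0.132, 95% interval -0.51 to 0.09, limma adjusted p = 0.743). Pgam1 shares 39.7% of its windows with other genes, mainly Pgam1-ps2. Eno1, the main enolase gene, had a log2 fold change of -0.12 (SE 0.151) and shares 59.0% of its windows, mainly with Eno1b.

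Eno1b, an annotated close copy of Eno1 that is counted separately and is no member, had 5766, 5713 and 5005 normalized counts with irinotecan, against 8029, 7574 and 6173 in controls. All 3 irinotecan values lay below the controls, with a log2 fold change of -0.40 (SE 0.149, limma adjusted p = 0.743). Reads of Eno1 and Eno1b may be split between the 2 genes by the counting. Pkm had a log2 fold change of -0.17 (SE 0.152).

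Ldha, on chromosome 7 (46841475 to 46855627, plus strand), closed the pathway. Its normalized counts were 23091, 19041 and 15835 in the irinotecan libraries, against 17980.3, 22398 and 19419 in controls. The groups overlapped throughout, and the log2 fold change was -0.06 (SE 0.185, 95% interval -0.48 to 0.37, limma adjusted p = 0.93), and -0.19 (SE 0.133) without irinotecan replicate 1. Ldha made up 99.9% of the message per kilobase of Ldha and Ldhb in each irinotecan library and 99.84% to 99.95% in controls.

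**Figure D3:**
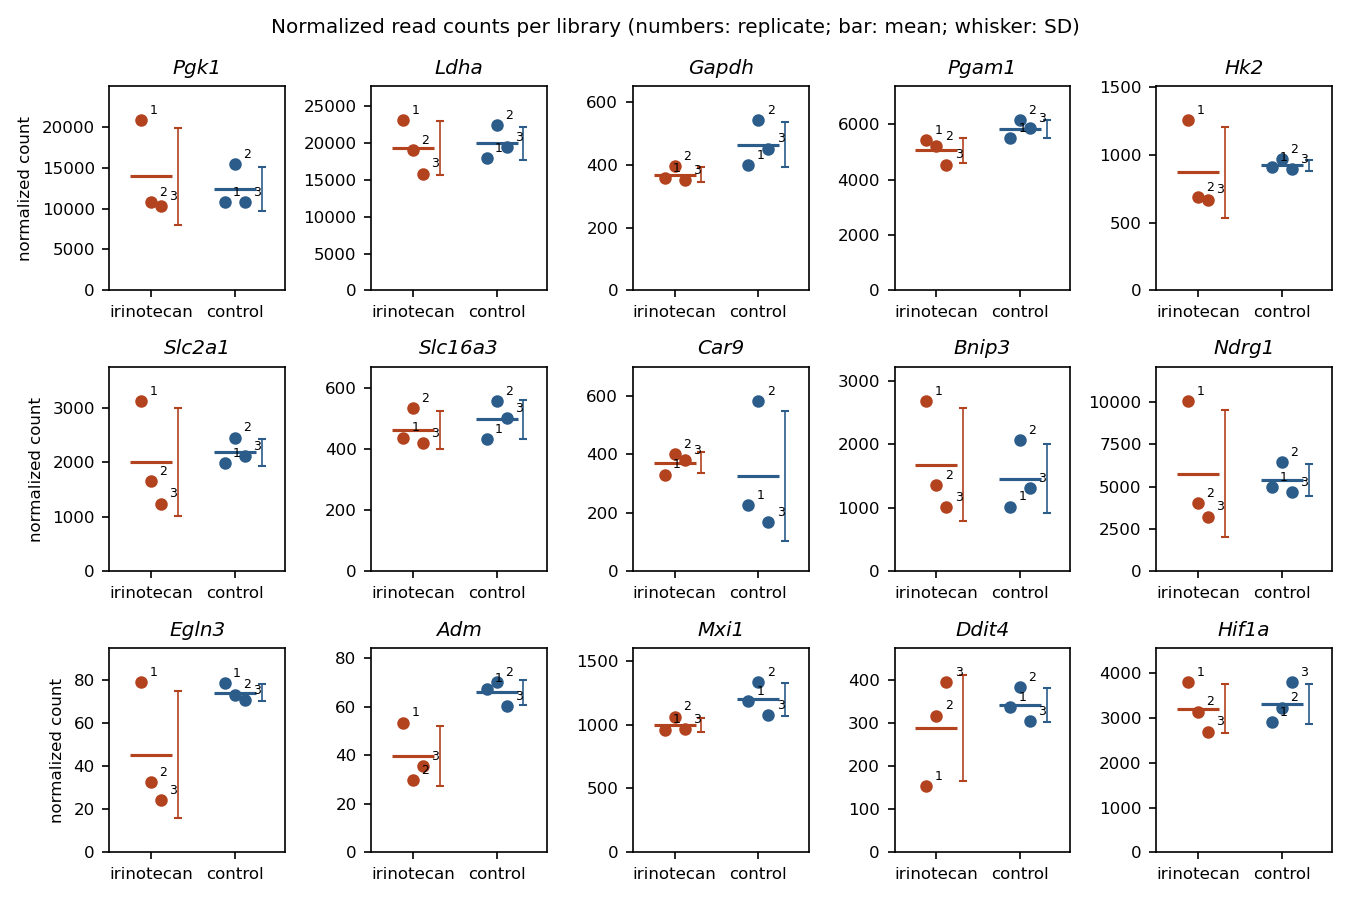
Normalized counts of 15 members in each library, irinotecan left of control in each panel; points carry the replicate number, bars are means and whiskers are SDs (n = 3 each). Irinotecan replicate 1 is above the other irinotecan libraries for Pgk1, Ldha, Pgam1, Hk2, Slc2a1, Bnip3, Ndrg1, Egln3, Adm and Hif1a. It is below them for Ddit4, Car9 and, narrowly, Mxi1. The groups do not overlap for Gapdh, Pgam1, Adm and Mxi1.

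The flux regulators and transporters had a median log2 fold change of -0.10, with 3 of 5 negative. It was -0.18 without irinotecan replicate 1, -0.20 without control replicate 1, 0.06 without irinotecan replicate 3 and -0.01 without control replicate 2. Slc2a1 encodes the glucose transporter GLUT1 and lies on chromosome 4 (119108711 to 119137983, plus strand). It had 3122, 1651 and 1244 normalized counts in the irinotecan libraries, against 1982, 2452 and 2111 in controls. As for Hk2, irinotecan 1 was above every control and irinotecan 2 and 3 were below every control. With all libraries the log2 fold change was -0.23 (SE 0.301, limma adjusted p = 0.821), and -0.60 (SE 0.137, limma adjusted p = 0.141) without irinotecan replicate 1. Slc2a1 supplied 98.4% to 98.8% of the message per kilobase of Slc2a1 and Slc2a3 with irinotecan and 98.4% to 99.2% in controls.

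Pfkfb3 and Pfkfb4 make and degrade fructose 2,6-bisphosphate, the strongest activator of phosphofructokinase. Pfkfb3 had 147.9, 218.6 and 176.4 normalized counts with irinotecan, against 206.6, 279.2 and 189.8 in controls. Pfkfb4 had 162.2, 188.8 and 230.1 with irinotecan, against 169.2, 191.3 and 145.2 in controls. The values of the 2 isoforms ran in opposite directions, with overlapping groups in each. Their log2 fold changes were -0.31 (SE 0.229) for Pfkfb3 and 0.19 (SE 0.21) for Pfkfb4, and neither passed the test (limma adjusted p = 0.745 and 0.787). Without irinotecan replicate 1 they were -0.18 (SE 0.200) for Pfkfb3 and 0.31 (SE 0.188) for Pfkfb4.

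Pdk1, the kinase that keeps pyruvate out of the mitochondrial dehydrogenase, had 1453, 756.1 and 741.9 normalized counts with irinotecan, against 819.9, 1225 and 736.9 in controls. Again irinotecan 1 and control 2 were the 2 high libraries. Its log2 fold change was 0.05 (SE 0.294) with all libraries and -0.27 (SE 0.182) without irinotecan replicate 1. Slc16a3, the lactate exporter MCT4, had 437.4, 534.6 and 419.6 normalized counts with irinotecan, against 431.9, 557.3 and 502.6 in controls, a log2 fold change of -0.10 (SE 0.168). The plasma membrane transporter MCT1, gene Slc16a1, was the larger lactate carrier gene, with 91.7% to 96.2% of the message per kilobase in irinotecan libraries and 90.5% to 93.4% in controls.

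The 13 other HIF targets had a median log2 fold change of -0.07, with 8 negative, and a wider spread than the enzymes, from -0.88 to 0.39. That median was 0.07 without irinotecan replicate 2, 0.06 without irinotecan replicate 3, 0.07 without control replicate 2 and -0.24 without irinotecan replicate 1, so its sign rested on single libraries. Their median standard error, 0.306, was also wider than the 0.166 of the enzymes. The median of the enzymes minus that of the other HIF targets was -0.06 with all libraries and 0.04 without irinotecan replicate 1, and the SD of that difference between replicates was 0.0952. The 2 lists thus differed by less than the spread between replicates, and its direction changed when irinotecan replicate 1 was left out.

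Adm encodes adrenomedullin, a secreted vasodilator peptide, on chromosome 7 (110627661 to 110629820, plus strand). It had 53.4, 29.9 and 35.5 normalized counts in the irinotecan libraries, against 67.3, 70.1 and 60.04 in controls. Every irinotecan value was below every control value. The log2 fold change was -0.76 (SE 0.306, 95% interval -1.46 to -0.06), with a limma unadjusted p of 0.0372 and an adjusted p of 0.743. Without irinotecan replicate 1 it was -0.99 (SE 0.275, limma adjusted p = 0.247). The level is low, at 24.4 normalized counts per kilobase with irinotecan and 40.6 in controls.

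Endothelial cells are a known source of adrenomedullin. Of 8 endothelial markers, 7 had negative log2 fold changes, against 51.8% of all genes tested. A limma unadjusted p under 0.05 was found for 5, all lower with irinotecan, where 3.08% of all genes were. No marker passed an adjusted p of 0.05. The markers summed to between 1489 and 2190 normalized counts with irinotecan and between 2482 and 2851 in controls, and none was at 0. The part of these cells in the Adm values was not tested.

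Egln3 encodes PHD3, a prolyl hydroxylase that is itself induced by HIF, on chromosome 12 (54178981 to 54203860, minus strand). Its normalized counts were 79.1, 32.7 and 24.3 in the irinotecan libraries, against 78.5, 73.2 and 70.7 in controls. The controls were tight, irinotecan 1 was level with them, and irinotecan 2 and 3 were far below every control. Its log2 fold change was -0.88 (SE 0.425, 95% interval -1.85 to 0.10, limma adjusted p = 0.743), and -1.36 (SE 0.279, limma adjusted p = 0.109) without irinotecan replicate 1. Within the Egln family, Egln3 took 3.49%, 1.58% and 1.28% of the message per kilobase with irinotecan, against 3.65%, 3.12% and 3.35% in controls. Egln1 encodes PHD2, the main oxygen sensor. Its log2 fold change was -0.05 (SE 0.154), and -0.16 (SE 0.116) without irinotecan replicate 1.

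Ndrg1, a stress-response gene linked to differentiation, lies on chromosome 15 (66929318 to 66969640, minus strand). It had 10039.9, 4044 and 3223 normalized counts in the irinotecan libraries, against 4955, 6445 and 4694 in controls. Irinotecan 1 was above and irinotecan 2 and 3 below all controls. The log2 fold change was -0.07 (SE 0.378, limma adjusted p = 0.96), and -0.56 (SE 0.146, limma adjusted p = 0.208) without irinotecan replicate 1. With edgeR and with DESeq2 on all 6 libraries it was 0.10, so its direction depends on the tool.

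Bnip3 and Bnip3l encode mitophagy receptors of the outer mitochondrial membrane. Bnip3 (chromosome 7, 138890836 to 138909519, minus strand) had 2677, 1354 and 1008 normalized counts with irinotecan, against 1016, 2059.7 and 1304 in controls. Bnip3l (chromosome 14, 66985239 to 67008877, minus strand) had 3044, 1777 and 1704 with irinotecan, against 1621, 2132 and 1888 in controls. Irinotecan 1 and control 2 were the highest library of their group in both genes, and the groups overlapped. Their log2 fold changes were 0.14 (SE 0.373) for Bnip3 and 0.17 (SE 0.232) for Bnip3l with all libraries, and -0.26 (SE 0.236) and -0.10 (SE 0.122) without irinotecan replicate 1. Bnip3 shares 33.5% and Bnip3l 17.2% of its windows with other annotated genes.

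Car9, the membrane carbonic anhydrase that exports acid equivalents and a common marker of hypoxia, lies on chromosome 4 (43506966 to 43513729, plus strand). It had 330.6, 400.7 and 380.1 normalized counts in the irinotecan libraries, against 226.2, 581.3 and 169.5 in controls. The irinotecan libraries lay close together, inside the range of the controls, in which control 2 was far above the other two. The log2 fold change was 0.39 (SE 0.401, 95% interval -0.53 to 1.31, limma adjusted p = 0.779). With edgeR and with DESeq2 on the recovered reads the Car9 value was 0.19. In the limma fit it was 0.91 without control replicate 2, 0.23 without control replicate 1 and 0.03 without control replicate 3, so its size rested on single controls.

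Mxi1, a Myc antagonist, had 961.1, 1061 and 963.9 normalized counts with irinotecan, against 1185, 1332 and 1074 in controls. The groups did not overlap, with a narrow gap between irinotecan 2 and control 3. Mxi1 had a log2 fold change of -0.26 (SE 0.137, 95% interval -0.57 to 0.05, limma adjusted p = 0.743). Ankrd37, an ankyrin repeat gene induced by HIF-1, averaged 81.4 ± 26.2 normalized counts with irinotecan and 122.1 ± 29.8 in controls (SD, n = 3 each). For Ankrd37 the log2 fold change was -0.60 (SE 0.298), and -0.48 (SE 0.280) without irinotecan replicate 1.

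Ddit4 encodes REDD1, an inhibitor of mTORC1 that responds to hypoxia and also to DNA damage. Its normalized counts were 153.0, 316.9 and 394.3 with irinotecan, against 335.6, 382.7 and 304.0 in controls. Here irinotecan 1 was the lowest library, the reverse of Ndrg1, Bnip3 and Pgk1. For Ddit4 the log2 fold change was -0.34 (SE 0.326), and 0.06 (SE 0.158) without that library. For the collagen prolyl hydroxylase subunits the value was 0.08 (SE 0.241) for P4ha1 and -0.08 (SE 0.331) for P4ha2, and for the histone demethylase gene Kdm3a it was 0.04 (SE 0.169). Without irinotecan replicate 1 these were -0.08 (SE 0.196) for P4ha1, -0.35 (SE 0.262) for P4ha2 and -0.10 (SE 0.121) for Kdm3a.

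Hif1a itself (chromosome 12, 73901375 to 73947530, plus strand) had 3797, 3141 and 2696 normalized counts in the irinotecan libraries, against 2909, 3229.6 and 3802 in controls. The groups overlapped, with irinotecan 3 the lowest library and control 3 the highest. Its log2 fold change was -0.05 (SE 0.169, 95% interval -0.44 to 0.34, limma adjusted p = 0.932), and -0.18 (SE 0.126) without irinotecan replicate 1. HIF-1 alpha is controlled mainly through the stability of the protein, which RNA counts do not measure.

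**Figure D4:**
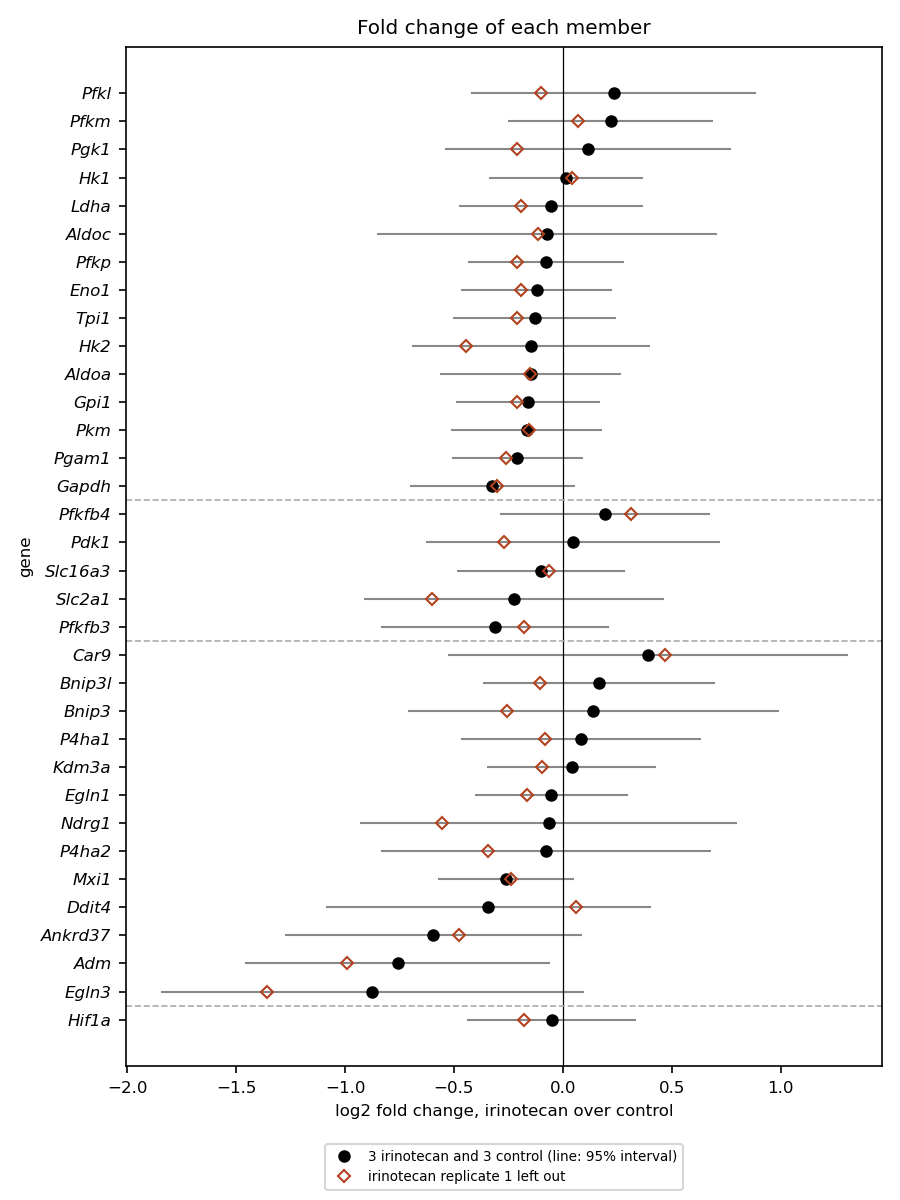
Log2 fold change of each member, irinotecan over control, on the log2(normalized count + 1) scale; black points with 95% intervals use all 6 libraries and open diamonds leave out irinotecan replicate 1, with dashed lines between the role groups. Only the interval of Adm excludes 0, before adjustment. Among others, the diamonds lie left of the points for Hk2, Slc2a1, Ndrg1, Egln3, Adm, Bnip3 and Pgk1, and right of the point for Ddit4.

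Without irinotecan replicate 1 the median log2 fold change of the 34 members was -0.19, with 29 negative, beside -0.0023 for all genes. With all 6 libraries it was -0.08, with 23 negative. Other single libraries removed most of this lean, with 17 of 34 negative without control replicate 2, 18 without irinotecan replicate 3 and 19 without irinotecan replicate 2. Without control replicate 1 or 3 there were 25 negative. With irinotecan replicate 1 left out, an unadjusted p under 0.05 was found for 6 members, beside 9.5% of all genes (5.15% lower and 4.34% higher). The 6 were Hk2, Pgam1, Slc2a1, Egln3, Adm and Ndrg1, all lower with irinotecan. In 12 of 34 members irinotecan 2 and 3 both lay below every control, against 13.7% of all genes, and 0 lay above, against 12.8% (26.4% in either direction). The smallest limma adjusted p was 0.109, for Egln3, and the smallest edgeR adjusted p was 0.135.

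With that library left out, DESeq2 called 2 members, both lower with irinotecan. Slc2a1 had a DESeq2 log2 fold change of -0.59 (SE 0.148, adjusted p = 0.0106) and Ndrg1 one of -0.56 (SE 0.149, adjusted p = 0.0206). Over all genes DESeq2 called 1.1% of 13684 in that setting, 0.563% lower and 0.541% higher. These settings leave 2 irinotecan libraries, and limma and edgeR called neither gene.

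The list medians by library show the same pattern. The other HIF targets had medians of 0.23, -0.10 and -0.27 in irinotecan replicates 1, 2 and 3, and of -0.12, 0.20 and -0.13 in control replicates 1, 2 and 3, as log2 differences from the control mean. The glycolytic enzymes had medians of 0.02, -0.16 and -0.25 in the irinotecan libraries, and of -0.04, 0.20 and -0.17 in controls. Both lists were highest in control 2 among controls and lowest in irinotecan 3 among irinotecan libraries. In irinotecan 1 the list of other HIF targets stood at 0.23 and the enzymes at 0.02. After removal of the trend with GC content and gene length the enzymes stood at 0.25 and the other HIF targets at 0.25 in that library.

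**Figure D5:**
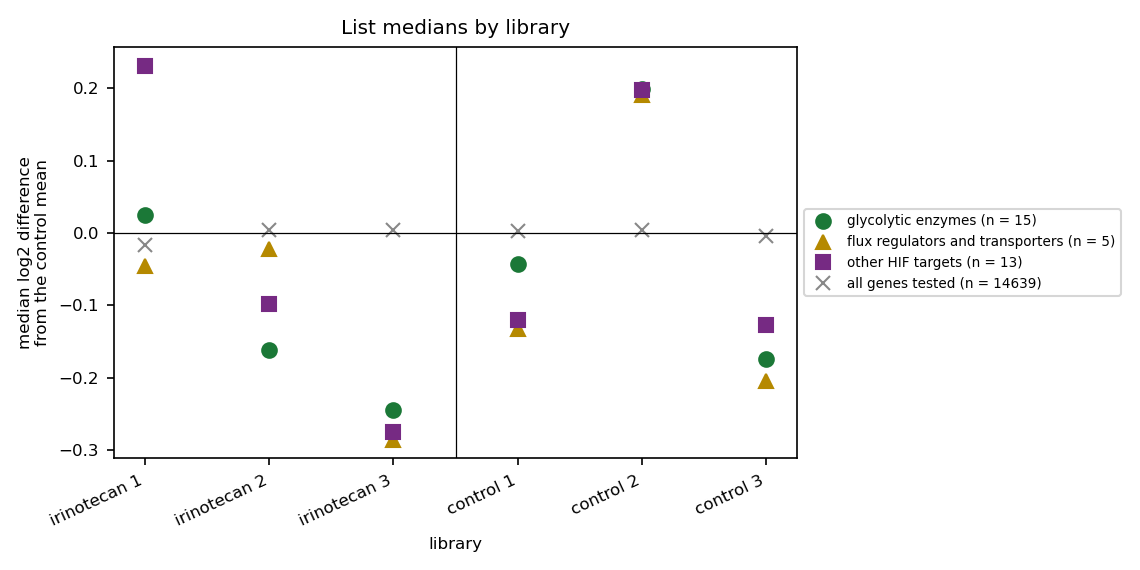
Median log2 difference from the control mean for the 15 glycolytic enzymes, the 5 flux regulators and transporters, the 13 other HIF targets and all 14639 genes tested, by library (irinotecan left of control). All genes stay near 0 in every library, while the 3 lists stand at 0.19 to 0.20 in control 2 and at -0.25 to -0.29 in irinotecan 3.

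Genes around the members were read from 4 lists. Of 20 other glycolysis genes 13 were tested, with a median log2 fold change of -0.02, and 1 had an unadjusted p under 0.05, Eno1b. The extremes of this list by p were Eno3, Pfkfb2 and Gapdhs on the positive side (0.18, 0.22 and 0.16) and Slc16a7 and Adpgk beside Eno1b on the negative side (-0.51 and -0.14). Of 18 genes of pyruvate entry and the pentose phosphate pathway 17 were tested, with a median of 0.08, and 0 had an unadjusted p under 0.05. Pdp2, Pdk2 and Pgd had positive values (0.38, 0.73 and 0.19), and Pgls, Pdk3 and G6pdx negative ones (-0.41, -0.15 and -0.09). Pdk2 was low, at 22.3 to 49.1 normalized counts with irinotecan and 15.5 to 27.2 in controls (SE 0.425). Pgls (65.4% GC) was low in irinotecan 1 only, with 624.3 there and 1609 and 1369 in irinotecan 2 and 3. Its controls ran between 1339 and 1637.

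Of 13 genes of the HIF machinery 12 were tested, with a median of 0.04, and 0 had an unadjusted p under 0.05. Hif1an encodes the asparaginyl hydroxylase that blocks HIF coactivator binding. It had 1834, 866.8 and 873.7 normalized counts with irinotecan, against 776.9, 860.5 and 769.8 in controls, and a log2 fold change of 0.48 (SE 0.277). All 3 irinotecan values lay above the controls, but irinotecan 2 did so by a few counts. Among coactivator genes the log2 fold change was 0.28 (SE 0.179) for Ep300 and 0.16 (SE 0.136) for Crebbp. Ep300 had 3697 normalized counts in irinotecan 1, against 2373 and 2519 in irinotecan 2 and 3 and 2244 to 2341 in controls. On the negative side were the ubiquitin ligase subunits Elob (-0.29) and Cul2 (-0.05) and the hydroxylase gene Egln2 (-0.12). Elob was low in irinotecan 1 only, with 739.3 normalized counts there and 1517 and 1411 in irinotecan 2 and 3. Its controls ran between 1365 and 1540.

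Of 35 further hypoxia-induced genes 34 were tested, 29 of them (85.3%) with negative values, against 51.8% of all genes tested. The median log2 fold change was -0.18, against -0.01 for all genes. An unadjusted p under 0.05 was found for 6 of the 34, all lower with irinotecan, where 3.08% of all genes were. At an adjusted p under 0.05, 0 passed. This list was chosen with earlier results of these data known, so its counts are no test. Its median with a library left out was not examined. Hmox1, the heme oxygenase gene, had 262.9, 463.3 and 372.0 normalized counts with irinotecan, against 782.5, 693.2 and 1055 in controls, a log2 fold change of -1.22 (SE 0.243, limma adjusted p = 0.662). Every irinotecan value was below every control. Pdgfb, a growth factor gene of endothelial cells and platelets, had 124.2, 161.8 and 180.4 with irinotecan, against 252.4, 321.0 and 285.6 in controls. For Pdgfb the log2 fold change was -0.89 (SE 0.206, limma adjusted p = 0.729). Lox, a collagen crosslinking enzyme gene, had -0.72 (SE 0.186, limma adjusted p = 0.743).

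Hmox1 is also expressed by macrophages, and Pdgfb by endothelial cells. The macrophage markers summed to 3629 normalized counts in irinotecan 1, where the fall differed by marker, and to 9107 and 9758 in irinotecan 2 and 3. In controls the sums ran between 8324 and 10997. Of the macrophage markers 9 of 9 had negative fold changes, against 51.8% of all genes tested, and no marker passed an adjusted p of 0.05. The endothelial sums are given above. The part of these cells in the Hmox1 and Pdgfb values was not tested. On the positive side of this list were Narf (0.40), Kdm4b (0.28) and the histone demethylase gene Kdm4c (0.26), each highest in irinotecan 1.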

How the data were processed

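RNA sequencing of 6 CT26 tumour samples gave 1 deposited table. The submitters' processing notes name DESeq2 1.20.0, featureCounts 1.5.0-p3 and HISAT2 2.0.5 besides fastp and CASAVA, and the build GRCm38 (mm10), without roles; annotation release, strand setting and handling of multiply matching reads are not stated. The deposited library columns hold a normalized signal, counts scaled by a single factor in each library. This was read from the values, of which 100% were multiples of their column's smallest entry (tolerance 1e-06), so whole reads were recovered. Fold changes on a log2 scale and p-values by the authors are also deposited.

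The members and all lists were chosen with earlier results of these data known. Limma 3.58.1 (R 4.3.3), with a mean-variance trend, was run on log2(normalized count + 1), which understates changes of low genes, for 14639 genes with a mean of at least 10; 34 of 34 members passed this filter. Benjamini-Hochberg adjustment ran over all these genes, and an adjusted p under 0.05 was called. EdgeR 4.0.16, DESeq2 1.42.0 and limma-voom on recovered reads, quantile normalization, pseudocounts of 0.5 and 10, no filter, library weights, removal of a GC and length trend (99.9% of genes had a GC value), a replicate block and each library left out were alternatives. EdgeR and DESeq2 without irinotecan replicate 1 were added after the data were seen. The tests were first tested on simulated data.

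Values were printed by library for a listed panel, for members with an unadjusted p under 0.05 or groups that do not overlap, and for the 2 smallest p-values per direction in each role group; in each surrounding list the 3 smallest per direction were named. Hk3, Slc16a1 and the marker genes were named as family members or marker lists. Same-group libraries differed beyond counting noise (lowest chi-square over its degrees of freedom 9.82). Depth bounds counting error only, since reads carry no molecular identifiers. Shared sequence was the share of 100-base windows of a gene's principal GENCODE M21 transcript that occur in transcripts of other genes. Without a stated strand setting, antisense reads cannot be told apart.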

Additional observations from a re-analysis of the deposited data

How the results depend on the processing

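Under every planned limma, edgeR and DESeq2 setting 0 members passed an adjusted p of 0.05, and the smallest member value was 0.0608 (Egln3, with estimated library weights). With DESeq2 and irinotecan replicates 2 and 3 only, 2 members passed, beside 74 genes higher and 77 lower over all genes, while edgeR on those libraries called 2 genes higher and 0 lower. Over all genes, estimated library weights called 30 higher and 22 lower and DESeq2 called 28 higher and 19 lower, against 0 in the limma test, and leaving out a library gave 0 to 2 genes higher (2 without irinotecan replicate 1). The cause of these differences was not tested.

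Of 340 member values in settings that keep all libraries, 18 turned in sign. With quantile normalization these were Hk1 (-0.0075), Ldha (0.025) and Kdm3a (-0.023). With library weights they were Pfkl (-0.054), Pgk1 (-0.15), Pdk1 (-0.22), Bnip3 (-0.13), Bnip3l (-0.041), P4ha1 (-0.019) and Kdm3a (-0.073). With the GC and length trend removed they were Hk1 (-0.078), Aldoa (0.013), Pdk1 (-0.080), Slc16a3 (0.012), Egln1 (0.046) and Kdm3a (-0.10). Ndrg1 was 0.10 with edgeR and with DESeq2. Of 204 member values with 1 library left out, 33 turned. The ranges then were -0.098 to 0.42 for Pfkl, -0.21 to 0.30 for Pgk1, -0.27 to 0.26 for Pdk1, -0.26 to 0.45 for Bnip3, -0.10 to 0.32 for Bnip3l, -0.097 to 0.34 for P4ha1 and -0.097 to 0.15 for Kdm3a. They were -0.62 to 0.059 for Ddit4, -0.21 to 0.027 for Pfkp, -0.36 to 0.14 for Aldoc, -0.56 to 0.26 for Ndrg1, -0.35 to 0.24 for P4ha2 and -0.11 to 0.093 for Hk1. They were -0.44 to 0.0094 for Hk2, -0.19 to 0.079 for Ldha, -0.60 to 0.063 for Slc2a1, -0.16 to 0.058 for Egln1, -0.18 to 0.068 for Hif1a and -0.31 to 0.034 for Aldoa. In all settings run, 14 members kept their sign, Adm, Egln3, Gapdh, Pgam1 and Mxi1 among them, and Car9, whose value ran from 0.026 to 0.91.

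The enzymes' median minus that of the other HIF targets ran from -0.12 to 0.044 with 1 library left out, the highest without irinotecan replicate 1. It was 0.019 with the GC and length trend removed. The enzymes' median ran from -0.19 (without irinotecan replicate 1) to -0.0067 (without control replicate 2) and that of the other HIF targets from -0.24 to 0.074 with 1 library left out. Without Gapdh, Pgk1, Eno1 and Pgam1, the enzymes with the most shared sequence (39.7% to 85.8% of windows), and without Aldoa, which has 2 rows, the enzymes' median was -0.074, a choice made after seeing the data. Whether the replicate numbers pair the samples was not settled. Deviations from the group mean of same-numbered libraries correlated at -0.11, -0.0087 and -0.21, and those of other pairs at -0.050 to 0.16. With 3 libraries a group and irinotecan 1 apart from the rest, these values cannot decide it. With the replicate block the enzymes' median was -0.12, 0 genes were called and the smallest member adjusted p was 0.905. With 3 libraries a group, the standard error of a member's log2 fold change ran from 0.132 to 0.425.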
